A study of Mus musculus with 14 samples.

Results

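The DNA damage checkpoint and repair genes described here are 41 mouse genes out of 50686 genes listed in the count files. They were picked by symbol from textbook pathways, with earlier results of these data known. They comprise 11 genes of homologous recombination, 6 of the Fanconi anaemia pathway, 5 of end joining, 9 of mismatch and excision repair, 4 that sense or bind DNA breaks and 6 of the checkpoint kinase cascade. All 41 were matched, each to 1 gene identifier, and all 41 had enough counts to be tested.

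RNA was sequenced from cultures of HPCLSK cells, haematopoietic progenitor lines grown from C57BL/6N mice. The 14 libraries fell into 4 groups: 4 Cdk6 knockout (KO) libraries transformed with BCR-ABL p210, 3 wild-type (WT) p210 libraries, 3 KO untransformed libraries and 4 WT untransformed libraries. Per the labels' protocols, the medium of the p210 cells held no cytokine, while that of the untransformed cells held IL-6 at 12.5 ng/ml and SCF at 2%, so that the oncogene and the medium cannot be told apart. The descriptions of the p210 samples also carry the letters SCF, whose meaning was not settled. The labels do not say which part of Cdk6 was deleted, nor whether replicates of a group were separate derivations, and p-values then rest on a spread among samples that may be technical. The comparisons ask how these genes differ between genotypes in each state and between states in each genotype.

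Cells repair double-strand breaks either by copying an intact sister chromatid (homologous recombination, led by BRCA1 and BRCA2) or by rejoining the ends directly (end joining, led by the Ku proteins and DNA-PKcs). The Fanconi anaemia pathway unhooks crosslinks between DNA strands, and mismatch and excision repair replace wrong or damaged bases. The kinases ATM and ATR signal damage to CHK1, CHK2 and WEE1, which hold the cell cycle. Many of these genes are transcribed mainly in cycling cells under E2F factors, which the CDK4/CDK6 kinases release from the retinoblastoma protein, and loss of Fanconi proteins depletes haematopoietic stem cells.

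Total counts per library ran from 20270348 to 50303271, and the 41 genes held from 0.173% to 0.310% of them. Levels are given as CPM (counts scaled to a common library size with TMM), and a gene was called where edgeR's quasi-likelihood F-test gave an adjusted p under 0.05 over 14512 genes. Cdk6 had 326, 578, 245 and 163 CPM in KO p210 replicates 1 to 4, against 576, 606 and 597 CPM in WT p210. It had 271, 258 and 236 CPM in KO untransformed libraries, against 970, 999, 1213 and 1305 CPM in WT untransformed libraries. The library labelled KO p210 replicate 2 lay within the WT p210 range and went against its label, while the other KO libraries lay below the WT libraries of their state. Reads outside a deleted part would still be counted, so the remaining counts do not measure the protein. WT untransformed replicate 3 also stood apart, with 411.4 CPM summed over 20 neutrophil and monocyte genes against 4467 to 10690 CPM in the other WT untransformed libraries. The tests of the 41 genes were recomputed without both libraries. The summed levels and the results of the other gene lists were not. The progenitor markers Kit, Ly6a, Cd34 and Ptprc were detected in all libraries, and Kit averaged 31.4 ± 11.9 CPM in KO p210 and 45.5 ± 12.2 in WT p210, against 259 ± 15.2 in KO untransformed and 431 ± 51.4 in WT untransformed libraries (SD, n = 4, 3, 3 and 4). The list of 12 progenitor genes as a whole was mixed: its sums averaged 2335 CPM in KO p210, 2679 in WT p210, 2784 in KO untransformed and 2985 in WT untransformed libraries, and p210 gave 6 lower and 1 higher in KO lines and 4 lower and 1 higher in WT lines, Gata2 being the higher gene in both.

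Levels can be compared between genes only per length, as the authors' TPM. By that scale Parp1, whose product detects strand breaks, led the 41 genes with 106 ± 12.5 TPM in KO p210, 139 ± 24.4 in WT p210, 198 ± 16.1 in KO untransformed and 262 ± 8.13 in WT untransformed libraries. Topbp1, the activator of ATR, followed with group means from 86.0 TPM in KO p210 to 147 TPM in WT untransformed libraries, and Msh6, a mismatch sensor, with 74.9 TPM in KO p210 to 135 TPM in WT untransformed libraries. Topbp1 has pseudogene copies in the annotation, so its counts are uncertain. At the low end stood Lig4 (DNA ligase IV), Rad51c (a homologous recombination factor) and Palb2 (the partner of BRCA2), with means over the groups of 2.18, 4.09 and 6.13 TPM.

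Promoter windows of 5 genes are printed because the results that follow turn on these genes: Brca2, Rad51c and Xrcc5 were lower in KO or p210 libraries, and Fancb and Lig4 were higher in p210 libraries. Each window holds 250 bases before and 50 bases after the RefSeq start on GRCm38.p6 and is written in the direction of transcription. Capitals mark matches to an E2F-like motif, searched on both strands and spelled TTCCCGC, or else TTCGCGC, or else TTGCCGC, or else TTGGCGC. The windows are Brca2 at chr5:150522371-150522670, plus strand, Rad51c at chr11:87404905-87405204, minus strand, Xrcc5 at chr1:72307171-72307470, plus strand, Fancb at chrX:164980342-164980641, plus strand, and Lig4 at chr8:9977631-9977930, minus strand.
Brca2: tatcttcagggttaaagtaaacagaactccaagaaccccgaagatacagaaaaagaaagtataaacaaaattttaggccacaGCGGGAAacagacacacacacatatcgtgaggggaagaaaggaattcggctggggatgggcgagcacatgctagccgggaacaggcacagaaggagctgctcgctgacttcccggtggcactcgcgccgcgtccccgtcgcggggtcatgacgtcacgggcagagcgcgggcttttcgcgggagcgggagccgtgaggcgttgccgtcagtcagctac
Rad51c: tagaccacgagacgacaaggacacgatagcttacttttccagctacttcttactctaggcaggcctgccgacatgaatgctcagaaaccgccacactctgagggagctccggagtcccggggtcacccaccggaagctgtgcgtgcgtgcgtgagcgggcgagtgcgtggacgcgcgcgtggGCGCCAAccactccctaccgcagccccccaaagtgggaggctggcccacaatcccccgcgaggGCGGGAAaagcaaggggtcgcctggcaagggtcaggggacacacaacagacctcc
Xrcc5: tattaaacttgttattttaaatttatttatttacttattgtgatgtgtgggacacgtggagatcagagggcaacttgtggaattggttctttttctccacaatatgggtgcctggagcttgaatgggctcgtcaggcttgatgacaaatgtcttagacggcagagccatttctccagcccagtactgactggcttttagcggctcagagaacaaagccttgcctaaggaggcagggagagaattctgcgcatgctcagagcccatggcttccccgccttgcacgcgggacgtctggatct
Fancb: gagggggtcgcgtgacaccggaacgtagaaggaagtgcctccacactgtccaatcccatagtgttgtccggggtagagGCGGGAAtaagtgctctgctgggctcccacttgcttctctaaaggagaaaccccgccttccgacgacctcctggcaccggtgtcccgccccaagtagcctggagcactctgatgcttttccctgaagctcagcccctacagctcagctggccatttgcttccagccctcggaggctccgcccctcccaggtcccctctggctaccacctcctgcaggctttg
Lig4: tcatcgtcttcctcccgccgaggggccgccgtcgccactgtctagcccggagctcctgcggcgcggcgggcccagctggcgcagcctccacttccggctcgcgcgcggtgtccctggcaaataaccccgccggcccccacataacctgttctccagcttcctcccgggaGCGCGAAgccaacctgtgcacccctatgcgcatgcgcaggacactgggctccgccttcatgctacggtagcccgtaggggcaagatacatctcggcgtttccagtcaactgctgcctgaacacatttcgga

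Brca2, Fancb and Lig4 each held 1 match and Rad51c held 2, while these letters were not in the Xrcc5 window. Of the 34 genes that matched a window, 20 (58.8%) held the motif, against 1776 of 10460 tested genes with a window (17.0%). The share was 57.1% (16 of 28) among replication genes and 31.2% (25 of 80) among other repair genes. It was 6 of 10 among the genes called lower in both p210 comparisons, 9 of 14 among those called lower in KO untransformed libraries and 4 of 8 among those called in no comparison. The cell cycle homology motif TTTGAA, searched on both strands and apart from the first, was in 1 of 34 windows (2.94%), the Bard1 window, against 12.2% of the tested genes. The motif was thus present in windows of genes that were higher, lower or not called.

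Summed over the 41 genes, CPM was lowest in KO p210 libraries and highest in WT untransformed libraries. The sums were 1963, 1952, 2002 and 1900 CPM in KO p210 libraries and 2229, 2161 and 2075 CPM in WT p210 libraries. They were 2245, 2228 and 2446 CPM in KO untransformed libraries and 2872, 2876, 2849 and 2835 CPM in WT untransformed libraries. The ranges of the 4 groups did not overlap, except that WT p210 replicate 1 lay just above the lowest KO untransformed library. For 17 of the 41 genes the group means followed the order KO p210, WT p210, KO untransformed, WT untransformed from low to high, and for 7 more the middle pair was exchanged. In bulk RNA, fewer cells of a type and less RNA per cell cannot be told apart.

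**Figure D1:**
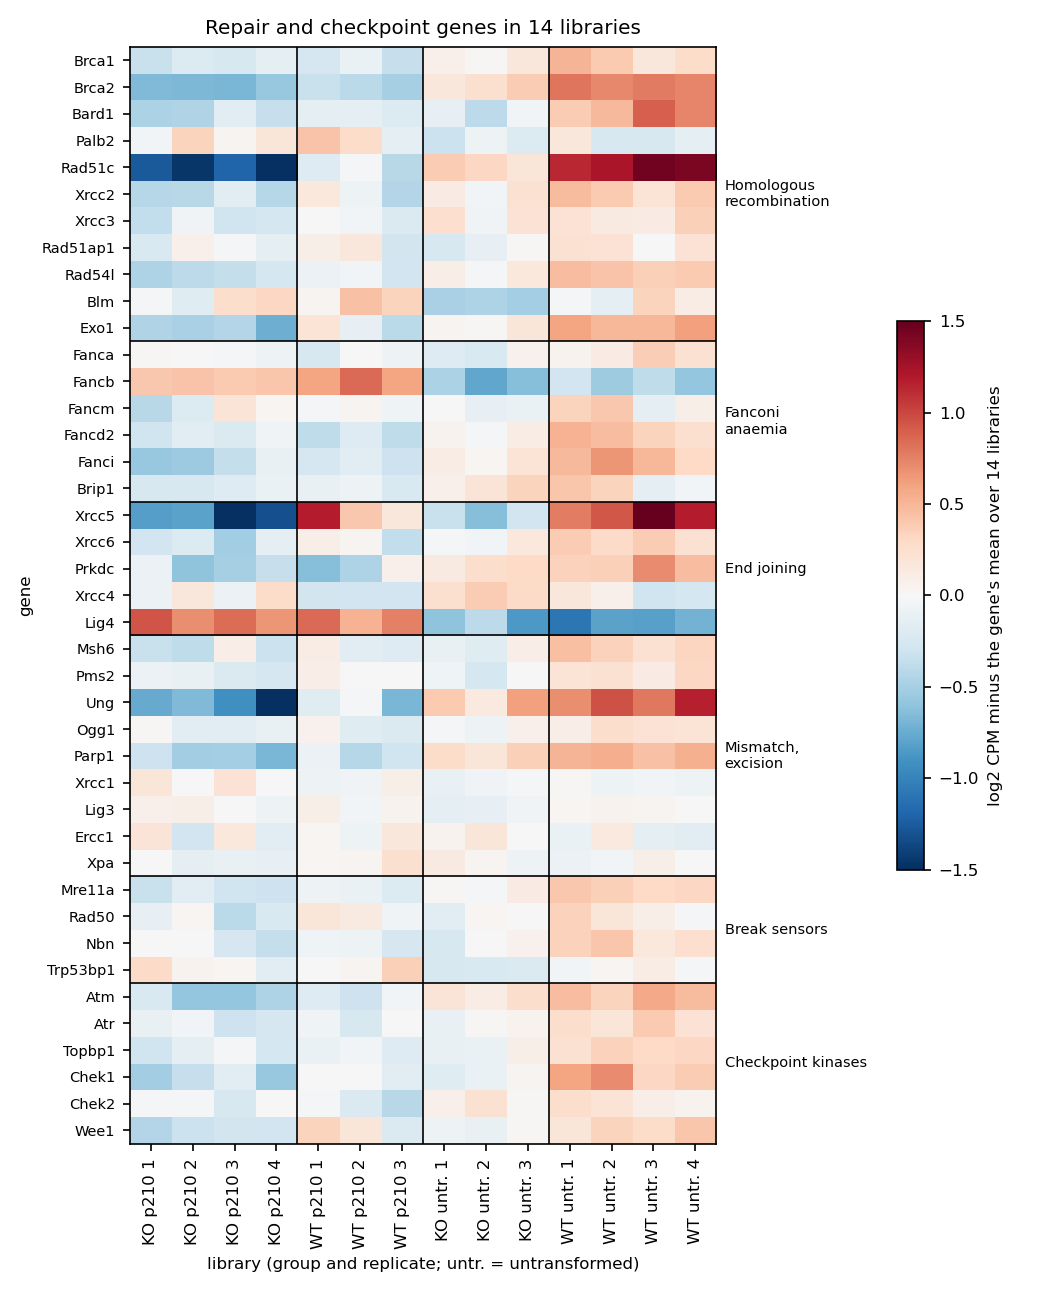
Heat map of the 41 genes (vertical axis, grouped by pathway) in 14 libraries (horizontal axis), coloured by log2 CPM minus the gene's mean over the libraries, with blue for lower and red for higher. Rad51c and Xrcc5 are bluest in KO p210 libraries, Fancb and Lig4 are red in both p210 groups, and most other genes are reddest in WT untransformed libraries.

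Each pathway sum was highest in WT untransformed libraries. Homologous recombination genes summed to 376 ± 21.6 CPM in KO p210, 424 ± 31.9 in WT p210, 432 ± 20.6 in KO untransformed and 576 ± 12.7 in WT untransformed libraries. End joining genes summed to 115 ± 11.4 CPM in KO p210, 145 ± 10.8 in WT p210, 153 ± 7.85 in KO untransformed and 204 ± 19.5 in WT untransformed libraries. Break sensors differed less, with 257 ± 22.2, 283 ± 2.27, 263 ± 12.2 and 316 ± 12.9 CPM in the same order (SD, n = 4, 3, 3 and 4). A sum is dominated by its most abundant genes, so the single genes follow below.

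**Figure D2:**
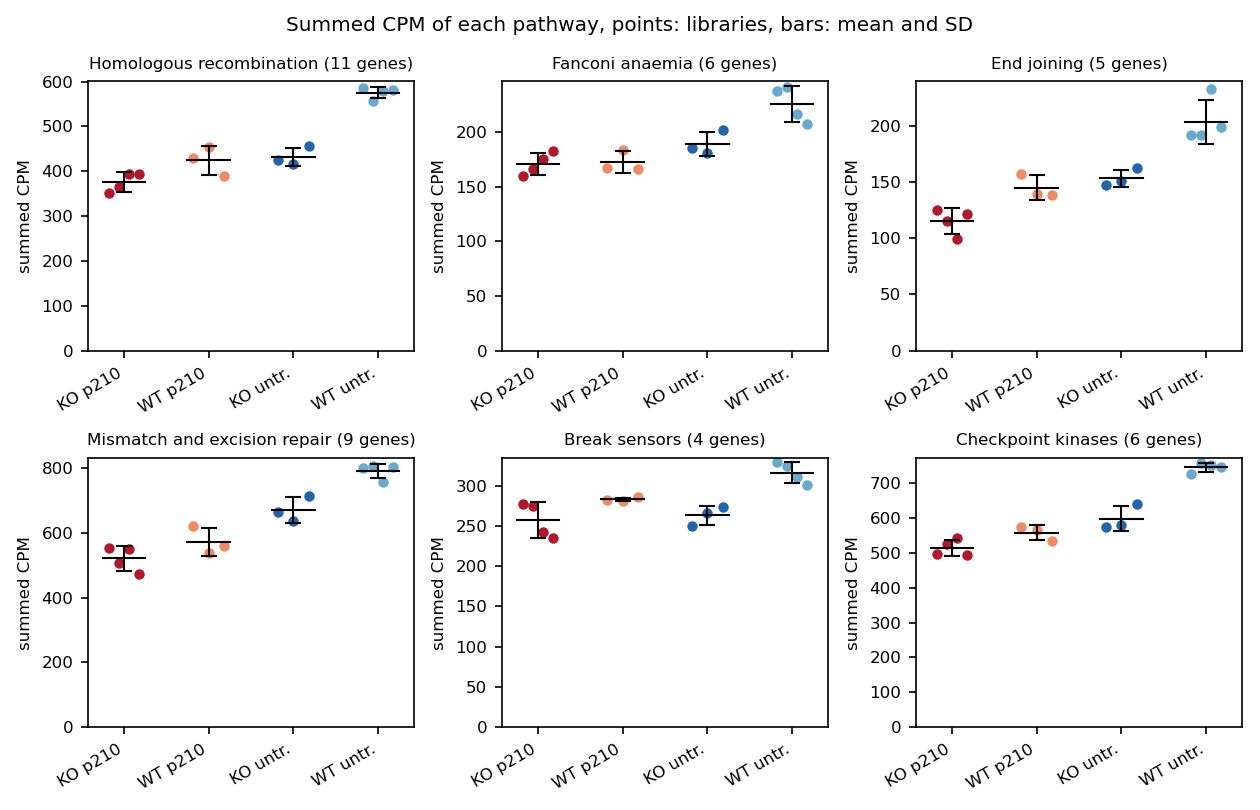
Summed CPM (vertical axes, from 0) of the genes of each pathway in the 4 groups (horizontal axes), with a point for each library and bars for mean and SD. WT untransformed libraries lie highest in all 6 panels, and the KO and WT p210 libraries overlap in the panels of homologous recombination, Fanconi anaemia, mismatch and excision repair and checkpoint genes.

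In untransformed lines, 18 of the 41 genes were below their WT level in KO libraries and 0 were above it. Over all tested genes 15.2% were called, 6.5% lower and 8.73% higher. Limma-voom called 19 of the 41, 18 lower and 1 higher, where it called 19.3% of all tested genes. With library size scaling in place of TMM the split over all genes was 1657 lower and 915 higher, in place of 944 lower and 1267 higher, and that of the 41 genes 23 lower and 0 higher. Their median log2 fold change was -0.28, against -0.02 over all tested genes, and 36 of 41 were negative. The 18 were 6 of 11 homologous recombination genes, 3 of 6 Fanconi genes, 1 of 5 end joining genes, 2 of 9 mismatch and excision repair genes, 2 of 4 break sensors and 4 of 6 checkpoint genes. For 27 of the 41 the KO and WT libraries did not overlap, against 39.7% of all tested genes. The number of calls depended on 3 libraries, as it did over all genes. Leaving out KO untransformed replicate 2 gave 3 calls, where 1.2% of all tested genes were called. Leaving out KO untransformed replicate 1 gave 7 (4.59% of all) and WT untransformed replicate 4 gave 10 (6.46%). Among libraries of the first code in the descriptions it was 5 (3.05% of all), with a median log2 fold change of -0.37. Those of the second code held KO untransformed replicate 3 as the only KO untransformed library. Their median was -0.21, against -0.05 over all tested genes. Without KO p210 replicate 2 and WT untransformed replicate 3 together the number of calls was 9 (6.42% of all). The calls of Atr, Exo1, Fanca, Fancd2, Fanci, Msh6, Nbn, Topbp1 and Wee1 were lost. In 14 fits that each left out 1 library, the call of Wee1 was lost in 11, those of Fanca and Msh6 in 10 each, Fanci and Nbn in 8 each, Atr in 6, Blm in 4, Exo1 and Pms2 in 3 each and Fancd2 and Topbp1 in 2 each. Those of Chek1, Mre11a, Rad54l and Xrcc5 were lost in 1, without KO untransformed replicate 2. With the code as a term in the fit 14 genes were called (14.9% of all), Atr, Fanci, Msh6 and Wee1 being lost.

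In p210 lines, 3 of the 41 genes were below their WT level in KO libraries and 0 were above it, where 4.44% of all tested genes were called, 3.56% lower and 0.882% higher (with library size scaling 722 lower and 69 higher, in place of 517 lower and 128 higher). The 3 were Rad51c, Xrcc5 and Wee1, and each was also lower in KO untransformed libraries. The median log2 fold change was -0.14 over the 41 genes and 0.00 over all tested genes, and 33 of 41 were negative. The groups did not overlap for 9 of the 41, against 13.3% of all tested genes. With only the 7 p210 libraries in the fit 0 were called, with 11 at an unadjusted p under 0.05, while DESeq2 called 7. Of all tested genes, the fit of the 7 libraries called 0.0373% and that of DESeq2 10%. Leaving out WT p210 replicate 3 gave 6 calls (4.88% of all). Leaving out both libraries that stood apart gave 2 (1.92%), the call of Wee1 being lost. The first code alone gave 3 calls (4.6% of all, median -0.17) and the code as a term 2 (4.8%), without Wee1. The second code alone held WT p210 replicate 3 as the only WT p210 library and gave a median of -0.06.

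In WT lines, 23 of the 41 genes were lower in p210 than in untransformed libraries and 2 were higher. The background was 39.5% of all tested genes called, 17.6% lower and 21.9% higher. Library size scaling turned the split over all genes to 3471 lower and 2516 higher, in place of 2554 lower and 3173 higher, and gave 26 lower and 2 higher among the 41. The median log2 fold change was -0.36, against 0.02 over all tested genes, and for 27 of the 41 the groups did not overlap, against 45% of all tested genes. The first code alone gave 24 calls (26.2% of all, median -0.37). The second code alone held WT p210 replicate 3 as the only WT p210 library and gave a median of -0.49. Leaving out both libraries that stood apart gave 23 calls (33.4% of all), and the code as a term 25 (40.2%). In fits that left out 1 library, calls were lost for Fanca in 4 of 14, for Msh6 and Ogg1 in 2 each and for Chek2, Xrcc2 and Xrcc6 in 1 each, without WT p210 replicate 3.

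In KO lines, 15 genes were lower in p210 than in untransformed libraries and 4 were higher, where 37.2% of all tested genes were called, 18% lower and 19.2% higher. The split over all genes with library size scaling was 3466 lower and 2093 higher, in place of 2605 lower and 2790 higher, and 21 lower and 3 higher among the 41. The median log2 fold change was -0.18, against -0.01 over all tested genes, and for 24 of the 41 the groups did not overlap, against 46.1% of all tested genes. Without KO untransformed replicate 3 the count was 12 (26.6% of all tested genes), and without both libraries that stood apart it was 17 (34%). With the code as a term it was also 17 (37.5%), the calls of Trp53bp1 and Xrcc6 being lost. In fits that left out 1 library, calls were lost for Xrcc6 in 12 of 14, Trp53bp1 in 10, Brip1 in 4, Xrcc3 in 3, Xrcc2 in 2 and Brca1 and Prkdc in 1 each, the fit without KO untransformed replicate 3. The first code alone gave 14 calls (29.4% of all, median -0.22). The second code alone held KO untransformed replicate 3 as the only KO untransformed library and gave a median of -0.30. The comparisons share libraries with one another, so the values of a gene in them are given side by side. In all, 13 genes were lower in p210 libraries of both genotypes, 2 were higher in both, and 9 were called in none of the 4 comparisons.

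**Figure D3:**
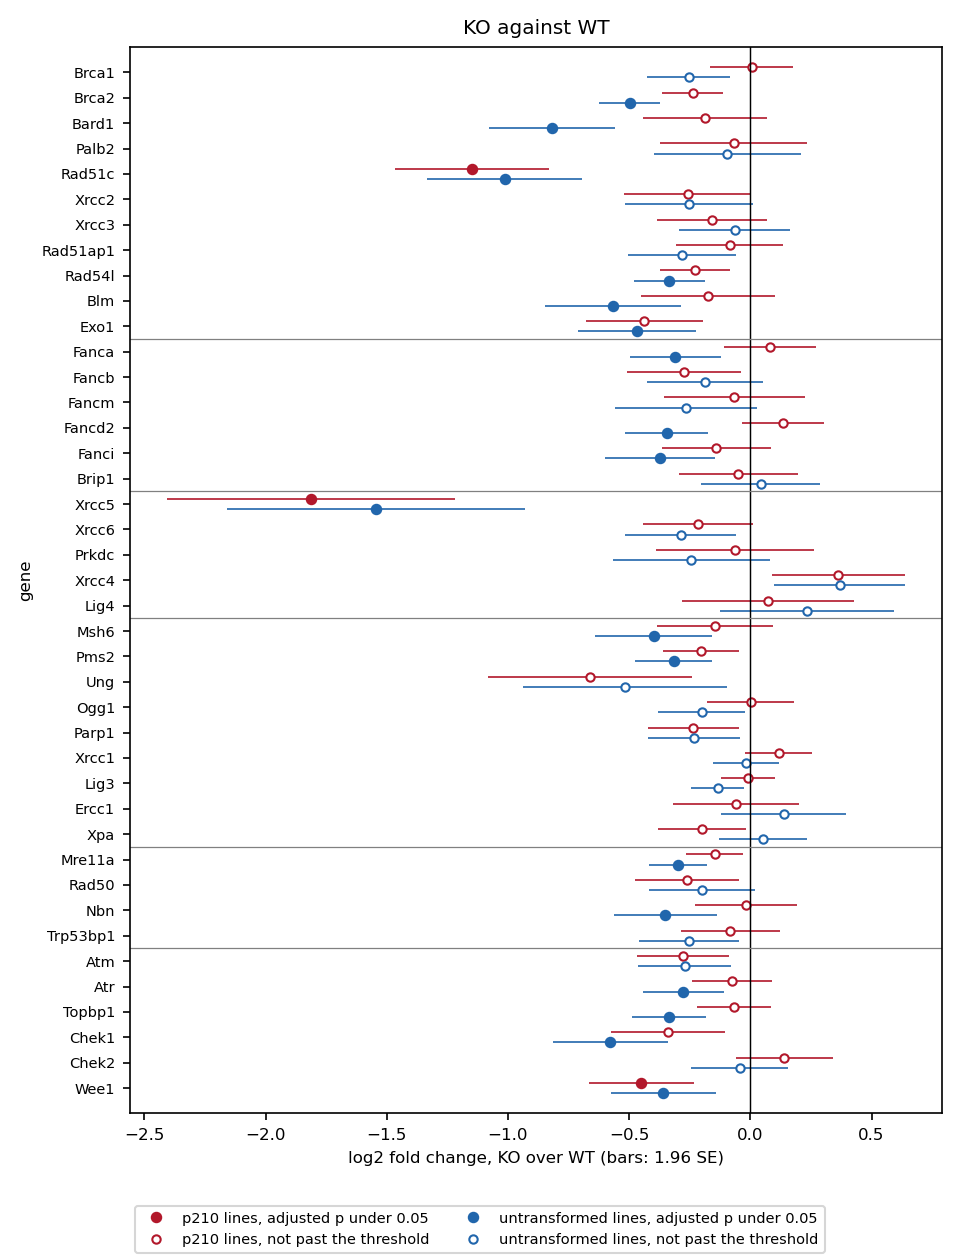
Log2 fold change, KO over WT (horizontal axis), of each of the 41 genes (vertical axis) in p210 lines (red) and untransformed lines (blue), with bars of 1.96 SE; filled points passed the adjusted p threshold. Most points lie left of 0, 18 blue and 3 red points are filled, and Xrcc5 and Rad51c lie farthest to the left in both states.

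Among homologous recombination genes, Rad51c was the only one of the 41 called lower in all 4 comparisons. It encodes a factor needed for homologous recombination, and lies at chr11:87376645-87404954 on the minus strand of GRCm38. Rad51c had 1.73, 1.51, 1.80 and 1.44 CPM in KO p210 libraries, against 3.61, 4.07 and 3.10 CPM in WT p210 libraries. It had 5.41, 5.14 and 4.72 CPM in KO untransformed libraries, against 9.07, 9.65, 11.3 and 11.01 CPM in WT untransformed libraries. The 4 groups did not overlap, and these levels stood on 33 to 511 counts per library. KO was lower than WT by a log2 fold change of -1.15 ± 0.16 (SE, adjusted p 0.00323) in p210 lines and -1.01 ± 0.16 (adjusted p 0.00583) in untransformed lines. p210 was lower than untransformed by -1.65 ± 0.16 (adjusted p 3.80e-05) in KO lines and -1.51 ± 0.17 (adjusted p 6.21e-05) in WT lines. KO p210 replicate 2, whose Cdk6 count went against its label, lay with the other KO p210 libraries at 1.51 CPM.

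Brca2, a tumour suppressor of homologous recombination, lies at chr5:150522630-150570329 on the plus strand of GRCm38 and had the smallest adjusted p of the 41 genes in both p210 comparisons. It had 34.1, 33.8, 33.6 and 36.4 CPM in KO p210 libraries and 42.9, 40.6 and 38.2 CPM in WT p210 libraries. It had 60.4, 63.7 and 69.9 CPM in KO untransformed libraries and 93.9, 89.2, 92.3 and 89.9 CPM in WT untransformed libraries. The 4 groups did not overlap. The log2 fold change, p210 over untransformed, was -0.91 ± 0.06 in KO lines (adjusted p 5.80e-06) and -1.17 ± 0.07 in WT lines (adjusted p 1.05e-06). KO over WT was -0.50 ± 0.06 in untransformed lines (adjusted p 0.00300) and -0.24 ± 0.06 in p210 lines, where the adjusted p of 0.0578 missed the threshold.

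Bard1, the ring-finger partner of BRCA1, had 20.5, 20.9, 25.7 and 22.5 CPM in KO p210 and 25.9, 25.8 and 24.8 CPM in WT p210 libraries. It had 26.2, 21.8 and 27.7 CPM in KO untransformed libraries, against 37.1, 40.1, 53.1 and 47.6 CPM in WT untransformed libraries. WT untransformed libraries thus stood above the other 3 groups, which overlapped. The KO over WT log2 fold change was -0.82 ± 0.13 in untransformed lines (adjusted p 0.00583) and -0.19 ± 0.13 in p210 lines (adjusted p 0.464). p210 over untransformed was -0.80 ± 0.13 in WT lines (adjusted p 0.000645) and -0.17 ± 0.13 in KO lines (adjusted p 0.322).

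Brca1 itself, the scaffold that starts resection and recruits PALB2, averaged 62.5 ± 3.57 CPM in KO p210 libraries and differed from WT p210 by a log2 fold change of 0.01 ± 0.09 (adjusted p 0.982). It was lower in p210 than in untransformed libraries, by -0.32 ± 0.09 in KO lines (adjusted p 0.0140) and -0.57 ± 0.09 in WT lines (adjusted p 0.000430). Xrcc2, another homologous recombination factor, fell likewise by 0.47 on the log2 scale in KO lines and by 0.46 in WT lines. Rad54l, the motor that drives strand exchange, was lower by -0.44 ± 0.07 in KO lines and -0.55 ± 0.07 in WT lines with p210, and by -0.33 ± 0.07 in KO against WT untransformed lines. Exo1, the nuclease that resects ends, was lower in the same 3 comparisons, by -0.60 ± 0.12, -0.64 ± 0.12 and -0.47 ± 0.12.

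Blm, the helicase that dissolves recombination intermediates, had another pattern. It had 86.2, 77.7, 106 and 110 CPM in KO p210 libraries, against 63.1, 64.3 and 62.0 CPM in KO untransformed libraries, and was higher with p210 by 0.59 ± 0.14 (adjusted p 0.00732). With the cell line as a block the adjusted p was 0.0575. KO untransformed libraries were also below WT untransformed libraries, by -0.56 ± 0.14 (adjusted p 0.0239). The ranges of KO p210 and KO untransformed libraries did not overlap. Xrcc3, which acts in the repair of broken DNA by homologous recombination, was lower with p210 in KO lines by -0.38 ± 0.12 (adjusted p 0.0215, and 0.129 with the line as a block). Palb2 and Rad51ap1, a cofactor of homologous recombination, were called nowhere, with log2 fold changes from -0.10 to 0.34 for Palb2 and from -0.28 to 0.03 for Rad51ap1.

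**Figure D4:**
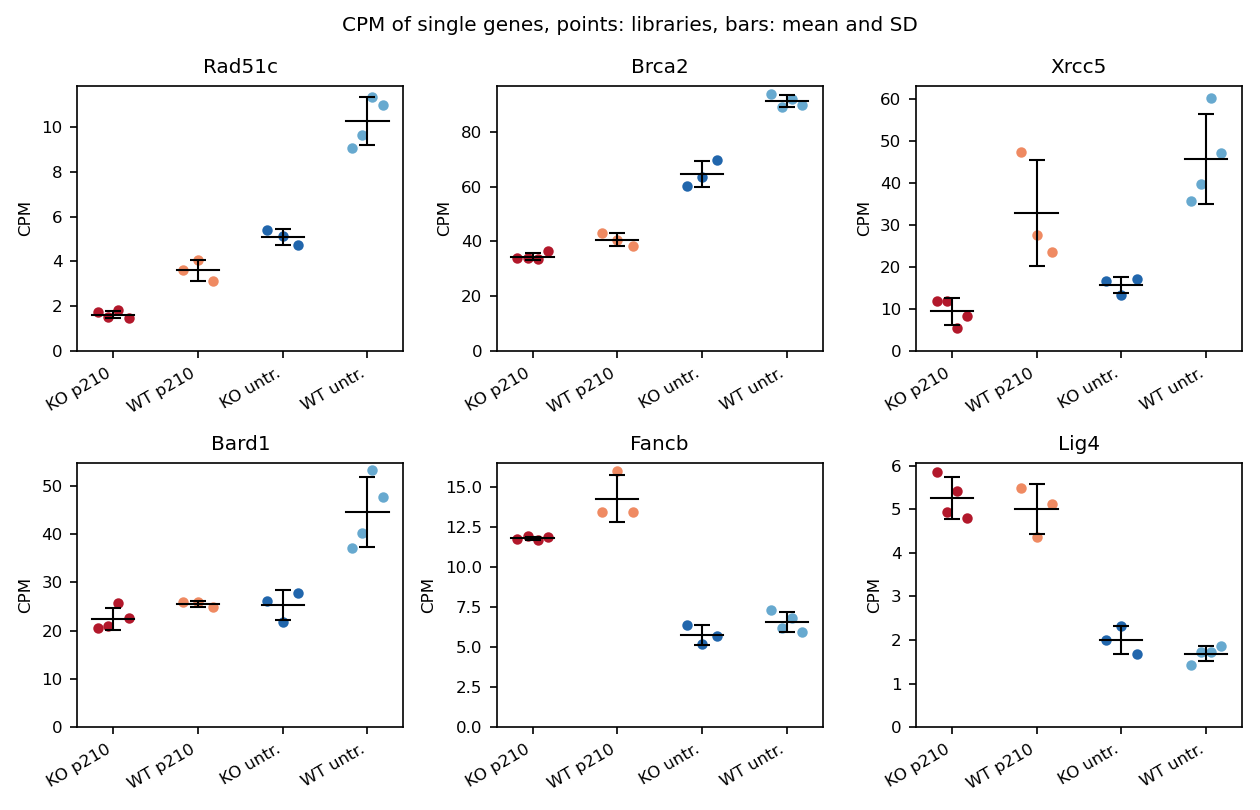
CPM (vertical axes, from 0) of Rad51c, Brca2, Xrcc5, Bard1, Fancb and Lig4 in the 4 groups (horizontal axes), with a point for each library and bars for mean and SD. Rad51c and Brca2 form 4 separate levels, Xrcc5 is low in both KO groups, Bard1 is high in WT untransformed libraries alone, and Fancb and Lig4 are high in both p210 groups.

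In the Fanconi anaemia pathway most genes were lower or not called, and 1 gene was higher with p210. Fancb, a subunit of the core ligase complex at chrX:164980592-164997272 on the plus strand, had 11.7, 11.9, 11.7 and 11.9 CPM in KO p210 libraries, against 6.36, 5.18 and 5.70 CPM in KO untransformed libraries. It had 13.4, 16.0 and 13.4 CPM in WT p210 libraries, against 7.28, 6.16, 6.81 and 5.95 CPM in WT untransformed libraries. All p210 libraries lay above all untransformed libraries. The log2 fold change was 1.04 ± 0.13 in KO lines (adjusted p 0.000121) and 1.12 ± 0.12 in WT lines (adjusted p 5.01e-05). Fancb was not called between genotypes, with -0.28 ± 0.12 in p210 lines (adjusted p 0.228) and -0.19 ± 0.12 in untransformed lines (adjusted p 0.309).

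Fancd2 and Fanci encode the pair that the core complex ubiquitinates. Fancd2 had 36.7, 40.2, 38.8 and 43.6 CPM in KO p210 libraries and 34.7, 39.5 and 34.6 CPM in WT p210 libraries. It had 46.9, 44.4 and 48.6 CPM in KO untransformed libraries, against 64.8, 62.3, 56.8 and 53.1 CPM in WT untransformed libraries. The 2 p210 groups overlapped, and the untransformed groups did not. KO over WT was -0.34 ± 0.09 in untransformed lines (adjusted p 0.0234) and 0.14 ± 0.09 in p210 lines (adjusted p 0.422), and p210 over untransformed was -0.71 ± 0.09 in WT lines (adjusted p 0.000120) and -0.23 ± 0.09 in KO lines (adjusted p 0.0553).

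Fanci was lower with p210 by -0.50 ± 0.12 in KO lines and -0.73 ± 0.12 in WT lines, and lower in KO than in WT untransformed lines by -0.37 ± 0.12 (adjusted p 0.0491). Fanca, another core subunit, was lower in KO untransformed libraries by -0.31 ± 0.10 (adjusted p 0.0484) and in WT p210 libraries by -0.30 ± 0.10 (adjusted p 0.0281, and 0.0976 with the line as a block), each against WT untransformed libraries. Brip1, a BRCA1-bound helicase, was lower with p210 in KO lines by -0.40 ± 0.12 (adjusted p 0.0261). Fancm, which anchors the core complex, was called nowhere, with log2 fold changes from -0.27 to 0.00.

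Of the end joining genes, Xrcc5 (Ku80) differed most between genotypes, and its partner Xrcc6 (Ku70) did not pass that test. Xrcc5, at chr1:72307421-72394952 on the plus strand, had 11.8, 11.9, 5.35 and 8.35 CPM in KO p210 libraries, against 47.2, 27.7 and 23.5 CPM in WT p210 libraries. It had 16.5, 13.3 and 17.1 CPM in KO untransformed libraries, against 35.6, 39.7, 60.3 and 46.9 CPM in WT untransformed libraries. Each KO library lay below each WT library, in both states. KO over WT was -1.81 ± 0.30 in p210 lines (adjusted p 0.00768) and -1.54 ± 0.31 in untransformed lines (adjusted p 0.0114), where the call was lost without KO untransformed replicate 2. Xrcc5 was not called between p210 and untransformed libraries, with -0.75 ± 0.30 in KO lines (adjusted p 0.0707) and -0.48 ± 0.30 in WT lines (adjusted p 0.232).

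Xrcc6 had -0.22 ± 0.12 in p210 lines (adjusted p 0.327) and -0.29 ± 0.12 in untransformed lines (adjusted p 0.111) for KO over WT. It was lower with p210 by -0.32 ± 0.12 in KO lines (adjusted p 0.0499) and -0.39 ± 0.12 in WT lines (adjusted p 0.0209). The KO value lay at the threshold and was lost in 12 of 14 fits that left out 1 library and with the line as a block (adjusted p 0.154). Prkdc, which encodes the catalytic subunit DNA-PKcs, was lower with p210 by -0.60 ± 0.17 in KO lines (adjusted p 0.0133) and -0.78 ± 0.17 in WT lines (adjusted p 0.00352).

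Lig4, which seals the joined ends, moved the other way. At chr8:9969049-9977686 on the minus strand, it had 5.85, 4.94, 5.41 and 4.80 CPM in KO p210 libraries, against 2.00, 2.31 and 1.67 CPM in KO untransformed libraries. It had 5.49, 4.37 and 5.13 CPM in WT p210 libraries, against 1.44, 1.74, 1.73 and 1.86 CPM in WT untransformed libraries. All p210 libraries lay above all untransformed libraries, on 32 to 186 counts per library. The log2 fold change was 1.40 ± 0.19 in KO lines (adjusted p 0.000245) and 1.56 ± 0.18 in WT lines (adjusted p 8.17e-05). Xrcc4, the scaffold that holds ligase IV, was not called in any comparison, with 0.36 ± 0.14 in p210 lines (adjusted p 0.173) and 0.37 ± 0.14 in untransformed lines (adjusted p 0.0893) for KO over WT.

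**Figure D5:**
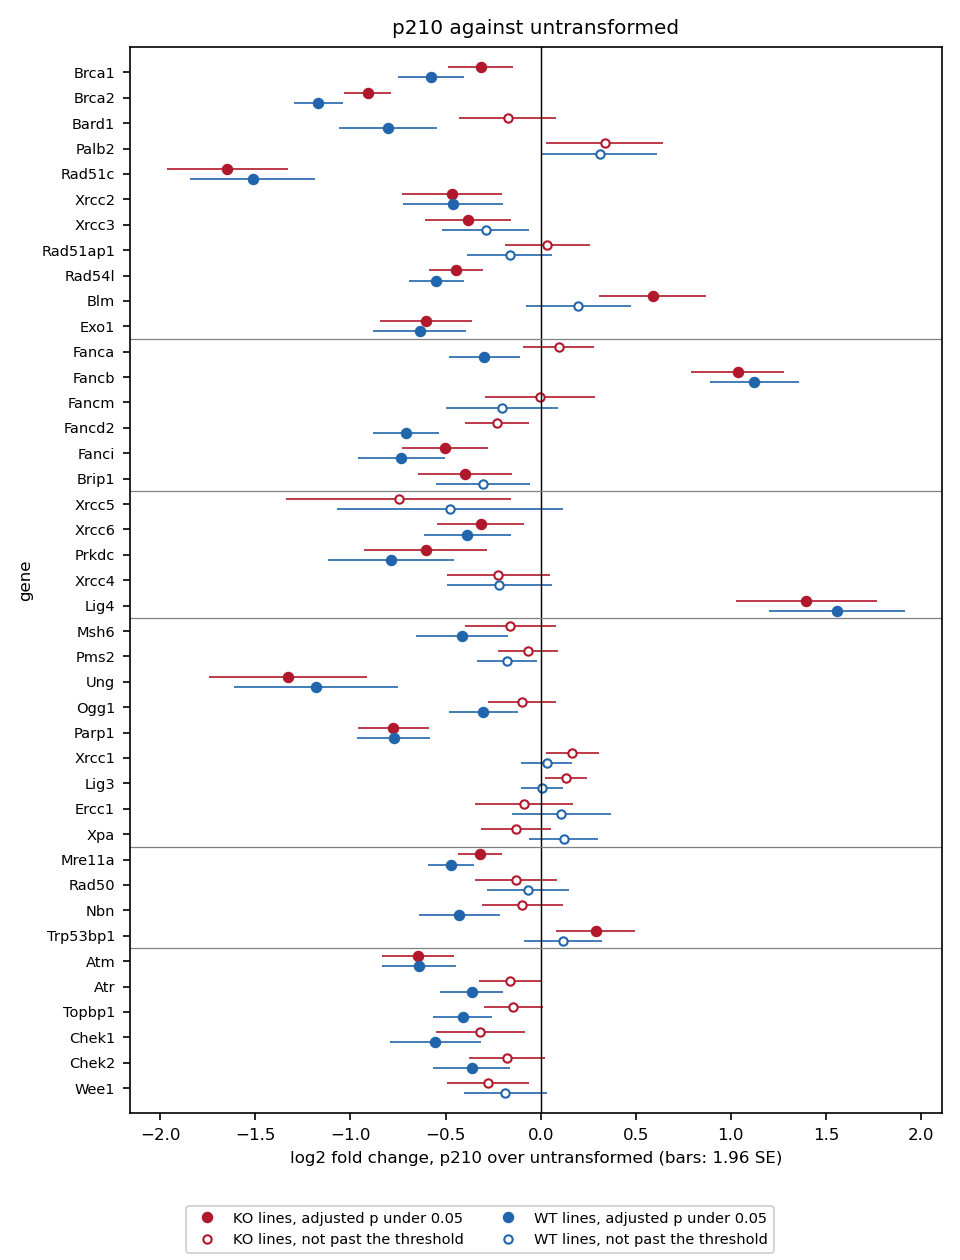
Log2 fold change, p210 over untransformed (horizontal axis), of each of the 41 genes (vertical axis) in KO lines (red) and WT lines (blue), with bars of 1.96 SE; filled points passed the adjusted p threshold. Fancb and Lig4 lie at 1.04 to 1.56 in both genotypes, and Rad51c, Ung and Brca2 lie farthest to the left.

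Among mismatch and excision repair genes, Parp1 and Ung fell with p210 in both genotypes. Parp1 had 213, 183, 186 and 163 CPM in KO p210 libraries, against 318, 300 and 338 CPM in KO untransformed libraries. It had 248, 196 and 214 CPM in WT p210 libraries, against 376, 383, 356 and 382 CPM in WT untransformed libraries. The p210 and untransformed libraries did not overlap, and the log2 fold change was -0.78 ± 0.10 in KO lines (adjusted p 0.000133) and -0.77 ± 0.10 in WT lines (adjusted p 0.000134). Between genotypes, KO over WT was -0.24 ± 0.10 in p210 lines (adjusted p 0.195) and -0.23 ± 0.10 in untransformed lines (adjusted p 0.118).

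Ung, the glycosylase that removes uracil from DNA, was lower with p210 by -1.33 ± 0.21 in KO lines (adjusted p 0.000692) and -1.18 ± 0.22 in WT lines (adjusted p 0.00143). It had 12.3, 13.1, 10.9 and 7.14 CPM in KO p210 libraries, 18.3, 20.3 and 12.9 CPM in WT p210 libraries, 27.3, 22.9 and 31.6 CPM in KO untransformed libraries and 33.6, 40.0, 35.9 and 46.6 CPM in WT untransformed libraries. Its KO p210 and WT p210 libraries overlapped. Msh6 was lower in KO untransformed libraries by -0.40 ± 0.12 (adjusted p 0.0490) and in WT p210 libraries by -0.41 ± 0.12 (adjusted p 0.0197), each against WT untransformed libraries. Pms2, the nuclease subunit of mismatch repair, was lower in KO than in WT untransformed lines by -0.32 ± 0.08 (adjusted p 0.0249), and Ogg1, the glycosylase for oxidised guanine, was lower with p210 in WT lines by -0.30 ± 0.09 (adjusted p 0.0214, and 0.111 with the line as a block).

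The remaining excision genes were not called in any comparison. They were Xrcc1 and Lig3, the scaffold and ligase of single-strand break repair, and Ercc1 and Xpa, which act in nucleotide excision repair. Xrcc1 ranged from 57.9 CPM in a KO untransformed library to 72.8 CPM in a KO p210 library, and Lig3 from 73.4 CPM in a KO untransformed library to 86.5 CPM in a WT p210 library. The largest size of a log2 fold change in the 4 comparisons was 0.17 for Xrcc1, and for Lig3 it was -0.14, Ercc1 0.14 and Xpa -0.20.

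Of the break sensors, Mre11a, the nuclease of the MRN complex, had 54.3, 60.9, 55.4 and 54.9 CPM in KO p210 and 64.5, 63.5 and 59.2 CPM in WT p210 libraries. It had 69.3, 67.5 and 74.2 CPM in KO untransformed libraries and 90.1, 87.7, 83.8 and 84.6 CPM in WT untransformed libraries. Untransformed groups did not overlap each other, while KO p210 replicate 2 reached into the WT p210 range. KO over WT was -0.30 ± 0.06 in untransformed lines (adjusted p 0.0112), and p210 over untransformed was -0.32 ± 0.06 in KO lines (adjusted p 0.00180) and -0.47 ± 0.06 in WT lines (adjusted p 0.000156). Nbn, the adaptor of the same complex, was lower in KO untransformed libraries by -0.35 ± 0.11 (adjusted p 0.0493) and in WT p210 libraries by -0.43 ± 0.11 (adjusted p 0.00893), each against WT untransformed libraries. Rad50, another subunit of the complex, was called nowhere, with log2 fold changes from -0.26 to -0.07. Trp53bp1 (53BP1), which holds ends back from resection, was higher with p210 in KO lines by 0.29 ± 0.11 (adjusted p 0.0485), a call lost in 10 of 14 fits that left out 1 library and with the line as a block (adjusted p 0.0964).

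Among checkpoint genes, Wee1, the kinase that holds CDK1 inactive, was called between genotypes in both states. It had 31.6, 34.4, 35.5 and 35.1 CPM in KO p210 libraries, against 54.2, 48.9 and 36.9 CPM in WT p210 libraries. It had 40.9, 39.9 and 43.4 CPM in KO untransformed libraries, against 48.7, 54.4, 52.1 and 57.2 CPM in WT untransformed libraries. Each KO library lay below each WT library of its state, with WT p210 replicate 3 close to the KO libraries. Its KO over WT log2 fold change was -0.45 ± 0.11 in p210 lines (adjusted p 0.0398) and -0.36 ± 0.11 in untransformed lines (adjusted p 0.0489), and each call was lost in 11 of 14 fits that left out 1 library.

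Chek1, the kinase downstream of ATR, had 21.4, 24.0, 27.4 and 20.8 CPM in KO p210 and 30.9, 30.6 and 27.3 CPM in WT p210 libraries. It had 27.1, 28.7 and 31.5 CPM in KO untransformed libraries, against 46.0, 50.1, 37.9 and 39.8 CPM in WT untransformed libraries. WT untransformed libraries lay above those of the other 3 groups. For KO over WT it was -0.58 ± 0.12 in untransformed lines (adjusted p 0.0123, lost without KO untransformed replicate 2) and -0.34 ± 0.12 in p210 lines (adjusted p 0.133). p210 over untransformed was -0.55 ± 0.12 in WT lines (adjusted p 0.00386) and -0.32 ± 0.12 in KO lines (adjusted p 0.0554, and 0.0362 with the line as a block).

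Atm, the kinase that answers double-strand breaks, was lower with p210 by -0.65 ± 0.10 in KO lines (adjusted p 0.000448) and -0.64 ± 0.10 in WT lines (adjusted p 0.000451). Atr, the kinase for single-stranded DNA, and its activator Topbp1 were lower in KO than in WT untransformed lines, by -0.28 ± 0.09 (adjusted p 0.0468) and -0.33 ± 0.08 (adjusted p 0.0184). In WT lines with p210 they were lower by -0.36 ± 0.09 for Atr (adjusted p 0.00560) and -0.41 ± 0.08 for Topbp1 (adjusted p 0.00171). Neither was called in KO lines, where p210 over untransformed was -0.16 ± 0.08 for Atr (adjusted p 0.153) and -0.14 ± 0.08 for Topbp1 (adjusted p 0.170). Chek2, the kinase downstream of ATM, was lower with p210 in WT lines by -0.36 ± 0.10 (adjusted p 0.0149).

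A call in one state or genotype and not in the other does not show a difference, and the interaction of genotype and transformation was therefore tested. None of the 41 genes passed (0 calls, 5 at an unadjusted p under 0.05), where 0.0345% of all tested genes did, and limma-voom also called 0. The 5 were Fancd2, Bard1, Brca2, Fanca and Topbp1. For Fancd2 the difference of the log2 fold changes was 0.48 ± 0.12 (adjusted p 0.172). DESeq2 called it (adjusted p 0.0130), as 1 of the 41 genes, where DESeq2 called 2.82% of all tested genes. For Bard1 it was 0.63 with an interval of 1.96 SE on each side from 0.27 to 0.99 (adjusted p 0.220). For Brca2 it was 0.26 ± 0.09 (adjusted p 0.272), for Fanca 0.39 ± 0.14 (adjusted p 0.272) and for Topbp1 0.27 ± 0.11 (adjusted p 0.322). All 5 were positive, as were 26 of the 41 genes. Negative values made up 36.6% of the 41 genes and 53.1% of all tested genes. A positive value means a KO minus WT difference that was higher in p210 than in untransformed lines. KO over WT went from -0.345 in untransformed to 0.135 in p210 lines for Fancd2, and from -0.31 to 0.081 for Fanca. For Rad51c the interaction was -0.13, with an interval from -0.58 to 0.31, and for Xrcc5 -0.27, with an interval from -1.10 to 0.56.

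The other repair and checkpoint genes, a list of 106 that were all tested, moved less to one side. Both this list and the 41 were chosen with earlier results of these data known, so the contrast between them is not a test. In KO against WT untransformed lines 20 were lower and 3 higher (21.7% called, against 15.2% of all tested genes). In p210 lines 3 were lower and 0 higher (2.83%, against 4.44%). With p210, 26 were lower and 20 higher in WT lines (43.4%, against 39.5%). In KO lines 18 were lower and 17 higher with p210 (33%, against 37.2%). Their median log2 fold changes were -0.12 and -0.05 for KO over WT in untransformed and p210 lines, and -0.01 and -0.08 for p210 over untransformed in KO and WT lines.

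Among them, Rif1, which limits resection together with 53BP1, and Clspn, which passes the signal of ATR to CHK1, were lower in KO libraries of both states. Rif1 was lower by -0.27 ± 0.06 in p210 lines (adjusted p 0.0292) and -0.55 ± 0.06 in untransformed lines (adjusted p 0.00214), and Clspn by -0.32 ± 0.07 (adjusted p 0.0174) and -0.53 ± 0.07 (adjusted p 0.00271). Helq, a repair helicase, was lower in KO p210 lines by -0.49 ± 0.10 (adjusted p 0.0221). In untransformed lines Msh3, a mismatch sensor, was lower by -0.47 ± 0.08 (adjusted p 0.00736), and Dclre1c (Artemis), which opens hairpin ends, was higher by 0.86 ± 0.13 (adjusted p 0.00504).

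With p210, Ddb2, the ultraviolet damage sensor and a known p53 target, was higher by 1.07 ± 0.13 in KO lines (adjusted p 0.000113) and 1.07 ± 0.12 in WT lines (adjusted p 7.68e-05). Mdc1, the scaffold at damaged chromatin, was lower by -0.74 ± 0.09 in KO lines (adjusted p 0.000121) and -0.94 ± 0.09 in WT lines (adjusted p 2.99e-05). In WT lines Tdp1, which removes trapped topoisomerase I, was lower by -1.10 ± 0.10 (adjusted p 2.18e-05) and Usp1, which removes ubiquitin from FANCD2, by -0.96 ± 0.11 (adjusted p 7.82e-05). In KO lines Nthl1, a glycosylase for oxidised pyrimidines, was lower by -1.53 ± 0.19 (adjusted p 0.000128) and Aplf, an end joining factor, by -0.93 ± 0.11 (adjusted p 0.000120).

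Genes of DNA replication were lower in the same groups. Between genotypes, 11 of 36 replication genes were lower in KO p210 libraries (median log2 fold change -0.27) and 25 were lower in untransformed lines (median -0.45), with 0 higher. With p210, 29 were lower in KO lines (median -0.44) and 31 in WT lines (median -0.64), again with 0 higher. Their summed level was 3360 to 3679 CPM in KO p210, 3776 to 4524 in WT p210, 4423 to 5334 in KO untransformed and 6583 to 7010 in WT untransformed libraries. Of 20 mitosis genes, 0 were called between genotypes in p210 lines and 9 were lower in KO untransformed lines, while p210 gave 1 lower and 4 higher in KO lines and 9 lower and 1 higher in WT lines. Of the mitosis genes 0%, 45%, 25% and 50% were called in that order, against 4.44%, 15.2%, 37.2% and 39.5% of all tested genes. The part of the cycling state in the repair gene results was not tested.

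Markers of other blood lineages were called in some comparisons. Over all tested genes edgeR called 15.2% in KO against WT untransformed lines and 4.44% in p210 lines. With p210 it called 37.2% in KO and 39.5% in WT lines. In that order neutrophil and monocyte genes had 21.1%, 0%, 21.1% and 15.8%, and mast cell and basophil genes 10%, 10%, 40% and 70%. Megakaryocyte genes had 40%, 30%, 50% and 50%, red cell genes 16.7%, 33.3%, 50% and 50%, and stromal genes 20%, 0%, 60% and 40%. Of 19 tested neutrophil and monocyte genes, edgeR called 4 higher in KO than in WT untransformed lines (Spi1, Itgam, Lyz1 and Lyz2). In that comparison DESeq2 called 9, and 24.1% of all tested genes, and limma-voom called 8, and 19.3% of all. In p210 lines edgeR called 0, limma-voom 0 and DESeq2 2, and 5 had an unadjusted edgeR p under 0.05. All 19 had positive log2 fold changes, KO over WT, in both states (medians 1.77 in untransformed and 1.44 in p210 lines). With p210, 4 were lower and 0 higher in KO lines, and 2 lower and 1 higher in WT lines. The summed level of the 20 listed genes was 7425 to 24550 CPM in KO p210, 2408 to 7742 in WT p210, 23600 to 32790 in KO untransformed and 411.4 to 10690 in WT untransformed libraries. Mast cell and basophil genes (11 listed) summed to 7360 to 11040 CPM in KO p210, 4329 to 14140 in WT p210, 2827 to 3118 in KO untransformed and 1341 to 7306 in WT untransformed libraries. Their calls went both ways, with 3 higher and 1 lower with p210 in KO lines and 3 higher and 4 lower in WT lines, 0 higher and 1 lower in KO against WT p210 lines, and 1 higher and 0 lower in KO against WT untransformed lines. Megakaryocyte genes (10 listed) summed to 1666 to 2535 CPM in KO p210, 2280 to 3332 in WT p210, 1320 to 2005 in KO untransformed and 2619 to 7370 in WT untransformed libraries, with 3 lower in KO p210 lines, 4 lower in KO untransformed lines, 5 lower with p210 in each genotype and 0 higher in any comparison. Red cell genes (12 listed, 6 tested) summed to 505.3 to 773.7 CPM in KO p210, 493.2 to 671.9 in WT p210, 791.5 to 872.1 in KO untransformed and 848.3 to 1105 in WT untransformed libraries. Of these, 2 were lower in KO p210 lines and 1 in KO untransformed lines, and p210 gave 3 lower and 0 higher in KO lines and 2 lower and 1 higher in WT lines. Of this list, Alas2 and Slc4a1 had no count in any library. Lymphocyte genes (14 listed, 4 tested, 0 called by edgeR at an adjusted p under 0.05 in any comparison) summed to 79.7 to 161.9 CPM in KO p210, 32.3 to 115.7 in WT p210, 67.8 to 133.1 in KO untransformed and 19.4 to 72.4 in WT untransformed libraries, and Cd3e, Cd8a and Ms4a1 had no count. By edgeR, 2 of the 4 had an unadjusted p under 0.05 in KO against WT untransformed lines and 1 with p210 in KO lines. In KO against WT untransformed lines DESeq2 called 1 and limma-voom 2, and limma-voom also called 1 with p210 in WT lines and 2 with p210 in KO lines. Stromal and endothelial genes (10 listed, 5 tested) summed to 596.9 to 828.4 CPM in KO p210, 555.8 to 764.3 in WT p210, 383.7 to 460.2 in KO untransformed and 188.6 to 471.5 in WT untransformed libraries. With p210 they gave 1 higher and 2 lower in KO lines and 1 higher and 1 lower in WT lines, and 1 was higher in KO untransformed lines. The part of these lineages in the repair gene results was not tested.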

How the data were processed

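RNA was measured in 14 libraries, prepared by the SENSE mRNA-Seq kit as single reads of 50 bp, per the labels' protocols. The submitters' processing notes name Trimmomatic, STAR, featureCounts and GRCm38, and most versions are not given in the sources used here. Raw counts were deposited by the authors, assigned to GENCODE M13 genes in reverse-stranded mode by featureCounts 1.5.1, as the file headers state. The authors' deposited TPM stand beside them, and recomputing TPM from the counts gave a largest difference of 0.049. TPM entered no test. Symbols were given to 50376 of 50686 genes from a GENCODE M21 table. Depth was 20270348 to 50303271 counts, and 6 libraries were topped up by another run. They were WT untransformed replicates 2, 3 and 4, KO untransformed replicate 3 and KO p210 replicates 2 and 4. No WT p210 library was topped up, so the extra run was not spread evenly over the groups.

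Counts were tested with edgeR 4.0.16 (R 4.3.3), using its quasi-likelihood F-test, TMM scaling, robust dispersion and Benjamini-Hochberg adjustment over the 14512 genes that passed filterByExpr (minimum count 10, minimum total 15). The fit took all 14 libraries, with no term but group, so the spread was shared over groups, with 10 residual degrees of freedom, and 5 contrasts were tested. Every adjusted p is from this test unless DESeq2 1.42.0 or limma-voom (limma 3.58.1) is named. Log2 fold changes carry their SE, CPM and TPM their SD.

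The 41 genes, the other lists and the tests were chosen with earlier results of these data known. Every one of the 41 is accounted for. Those past the threshold are named with values, first the 4 with the smallest adjusted p per comparison, together with the 3 of highest TPM and up to 4 other repair genes per comparison. Library values of further genes were added for reading.

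Descriptions carry a letter and 1 of 2 codes, which were read as naming the line within a genotype. By that reading 6 lines appear in both states. Deviations of the same line from its group means correlated at r of 0.021 to 0.163, and those of libraries with the same title number at -0.153 to 0.163. Libraries with different title numbers gave -0.213 to 0.265, a range that spans both. KO untransformed replicate 3 shares its line with KO p210 replicate 4. Alternatives were other tools, scaling, filters, codes, blocks, and each library left out.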

Additional observations from a re-analysis of the deposited data

Results flagged for a closer look

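In groups of 4 libraries, 1 library stood apart from the other 3 by a large gap relative to the range in 8 of 94 groups examined, over the 41 genes and their pathway sums in KO p210 and WT untransformed libraries. Chance gives about 1 in 20 groups. KO p210 replicate 3 was high for Xrcc2 (17.3 CPM, others 14.4 to 14.6) and Msh6 (131.6 CPM, others 94.1 to 98.2) and low for Chek2 (29.8 CPM, others 34.5 to 35.4). KO p210 replicate 4 was high for Brca2 (36.4 CPM, others 33.6 to 34.1) and low for Exo1 (21.5 CPM, others 25.5 to 26.3). KO p210 replicate 2, whose Cdk6 count went against its label, was high for Mre11a (60.9 CPM, others 54.3 to 55.4). WT untransformed replicate 3 was low for Rad51ap1 (45.7 CPM, others 53.0 to 53.6) and for the summed mismatch and excision repair genes (757.8 CPM, others 799.2 to 805.1).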

How the results depend on the processing

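No gene called in a comparison changed sign under any alternative run. In KO against WT untransformed lines, 18 repair genes were called (15.2% of all tested genes), and 6 with no filter on low counts (4.68%). The number was 5 with the first code alone (3.05%) and 9 without WT untransformed replicate 3 and KO p210 replicate 2 together (6.42%). It was 3 to 23 with 1 library left out, where 181 to 2643 of all genes were called. Brca2, Bard1 and Rad51c were kept in all 14 of these last fits, but Rad51c was lost with the first code alone. In p210 lines 3 were called (4.44% of all), 7 with DESeq2 (10%) and 7 with library size scaling (5.45%). With the libraries of the 2 groups alone 0 were called (0.0373% of all). With 1 library left out 2 to 6 were called, where 285 to 736 of all genes were. Rad51c and Xrcc5 were kept in all of these last fits, but both were lost with the libraries of the 2 groups alone. With p210 in WT lines 25 were called, 4 with the second code alone and 20 to 25 with 1 library left out. In KO lines 19 were called, 0 with the second code alone and 12 to 22 with 1 library left out. Over all genes the p210 comparison called 5727 in WT lines, and 4668 to 5854 with 1 library left out. In KO lines it called 5395, and 3969 to 5742 with 1 library left out. In both, the second code alone leaves 1 library in a group, so its count cannot show a loss particular to repair genes. For the interaction 0 were called, 1 with DESeq2 and 0 to 0 with 1 library left out. The cause was not tested, except that each code holds fewer samples and no filter raises the genes tested to 27228.

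With the title number as a replicate block, 11 genes were called in KO against WT untransformed lines (11.2% of all tested genes). Atr, Fanca, Fancd2, Fanci, Msh6, Pms2 and Wee1 were lost. This block also lost Wee1 in p210 lines, Ogg1 with p210 in WT lines and Brip1 and Xrcc6 with p210 in KO lines. The line as a replicate block gave 23 calls with p210 in WT lines (27% of all), 17 in KO lines (25.2%) and 0 for the interaction.

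Library size scaling moved the median log2 fold change of all genes by about 0.1, to -0.12 and -0.10 for KO over WT in untransformed and p210 lines and -0.12 and -0.10 for p210 in KO and WT lines. The repair medians were then -0.38, -0.24, -0.29 and -0.48, each below the median of all genes.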
